A study of Schizosaccharomyces pombe with 6 samples.

Results

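The genes described here encode the LAMMER kinase Lkh1, the corepressors Tup11, Tup12 and Ssn6, and 3 subunits of the Mediator kinase module, Srb8, Srb10 and Srb11, of the fission yeast Schizosaccharomyces pombe. The 7 genes were taken by symbol from the array annotation. Each was measured by 1 probe set, out of 2896 S. pombe genes tested. The series compared mixtures of the h+ strain YHL6381 and the h- strain SPQ-01 after 90 min in YEPME with the same mixtures after 90 min in YEPD, on 3 Affymetrix arrays per medium that are labelled as biological replicates 1 to 3. Before mixing in equal parts, the strains had been grown separately at 30 °C in YEPD until the OD600 reached 5.0. The labels give the mating types but no further alleles of the strains, and they do not spell out the composition of YEPME. According to the design text, the YEPME mixtures had flocculated and the YEPD mixtures had not. Its codes for the media are swapped relative to the sample labels, and the medium named for each sample was followed here. If the design text held instead, every difference between media below would change sign. The strain field of the YEPME samples also reads diploid, although their remaining labels describe mixed haploids.

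Flocculation in fission yeast is the clumping of cells through surface glycoproteins, and much of its known control is by repression of the genes for them. Lkh1 is a dual-specificity kinase of the LAMMER family, and cells that lack it flocculate. Tup11 and Tup12 are WD-repeat proteins related to the budding yeast corepressor Tup1. They act together with the TPR protein Ssn6 and are brought to promoters by DNA-binding repressors. The Mediator kinase module holds the cyclin-dependent kinase Srb10 (Cdk8), its cyclin Srb11, and the large subunits Srb8 (Med12) and Med13. It binds reversibly to the core Mediator complex, and its loss is also known to make fission yeast cells flocculate. The arrays measure the transcripts of these regulators and not the activity of the proteins. In a mixture of h+ and h- cells, a lower number of expressing cells and a lower RNA amount per cell cannot be told apart.

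Values are the authors' deposited RMA values on the log2 scale. The replicate 1 arrays of both media stand apart from the other 4 arrays, in the number of digits deposited and in the level of most genes, and are treated as a batch. Differences between media were therefore tested with limma with the batch as a block, and a gene passed at an adjusted p (Benjamini-Hochberg over all 2896 genes) under 0.05. Background on each array was the 95th percentile of the S. cerevisiae probe sets, 4.78 to 5.60 on the log2 scale. lkh1, tup11, tup12, ssn6, srb8 and srb11 lay at least 3.23 above it on every array. srb10 was dim, at 0.88 to 1.27 above it, and its mean level was higher than that of only 3.1% of the genes. With 3 arrays per medium, the precision of every value is limited. The p-values measure the spread between these arrays, and nothing in the labels beyond the word biological says how separate the cultures were.

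**Figure D1:**
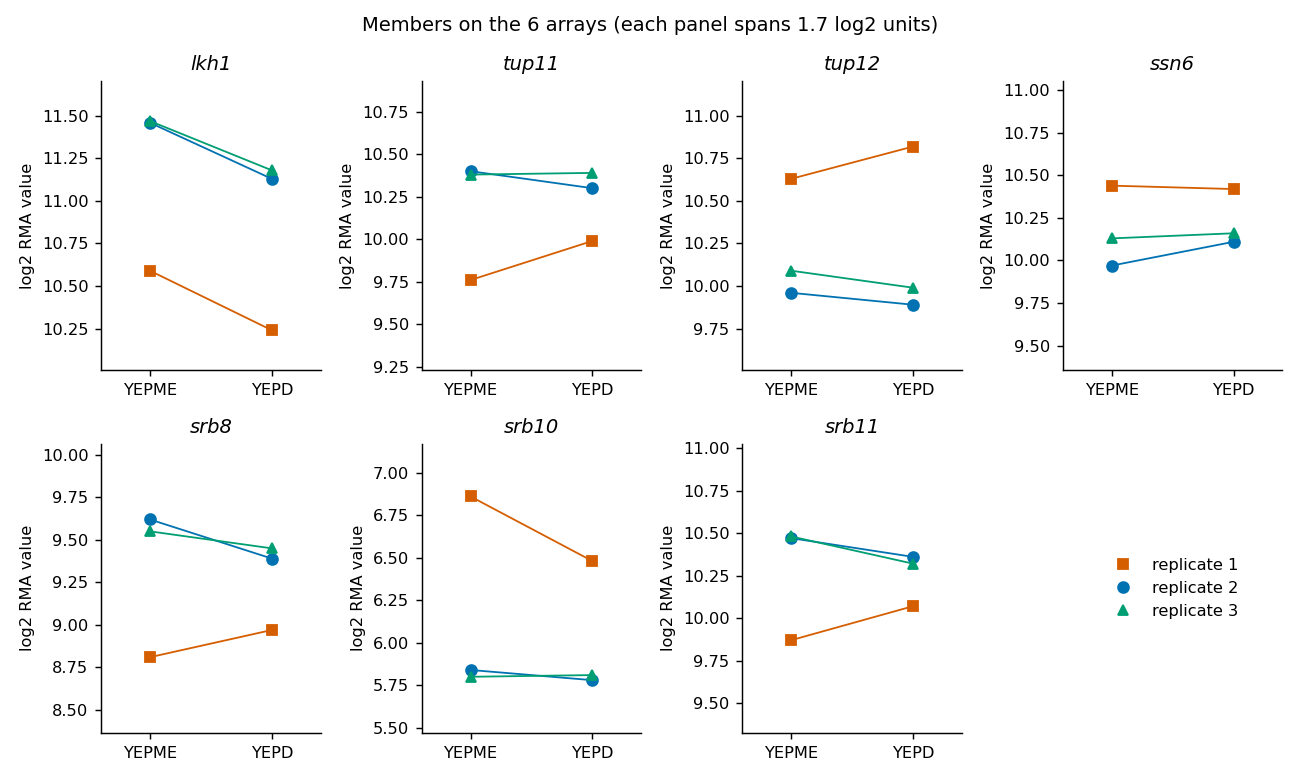
Log2 RMA values (y axis, each panel spanning the same range) of the 7 genes in YEPME (left) and YEPD (right), with a line joining the arrays of each replicate number. lkh1 is higher in YEPME in all 3 replicates, and in every panel the replicate 1 arrays lie apart from the other 4.

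Among the 7 genes, lkh1 was the only one that rose in YEPME, by 0.33 ± 0.04 on the log2 scale (SE), or 1.25-fold. lkh1 (SPAC1D4.11C, chromosome I) had log2 values of 10.59, 11.46 and 11.47 on the YEPME arrays of replicates 1, 2 and 3, against 10.24, 11.13 and 11.18 on the YEPD arrays. The YEPME array was the higher one in every replicate, while the media overlapped over the 6 arrays because both replicate 1 values were low. Over the 6 arrays the media overlapped for each of the 7 genes, and did not for 5.7% of the genes tested. The differences were 0.36, 0.33 and 0.29 in the 3 pairs. The means were 11.18 ± 0.50 in YEPME and 10.85 ± 0.53 in YEPD (SD, n = 3 each), and most of that spread lay between the batches. In the fit that blocks on the batch, the limma adjusted p of lkh1 was 0.0404, with a 95% interval of the difference from 0.21 to 0.44. The count of 1 gene higher of 7, and 0 lower, compares with 0.76% of all genes called higher, 1.31% called lower and 2.07% called in either direction. lkh1 stood at place 43 of 2896 when genes were ordered by p, and at place 233 by the absolute size of the difference. It was also the only one of the 7 that was higher in YEPME in all 3 pairs, as 16.7% of all genes were, and 0 of the 7 were lower in all 3 pairs (20.2% of all genes).

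On the 4 arrays of replicates 2 and 3 alone, limma also called lkh1 higher, by 0.31 ± 0.03 (adjusted p = 0.00837), and none of the other 6 genes. Of all genes, 15.6% were called there, 6.91% higher and 8.7% lower. The media did not overlap on these arrays for 3 of the 7 genes, lkh1, srb8 and srb11, against 63.1% of all genes. The difference in replicate 1 did not depart from that within replicates 2 and 3 by limma's interaction test (0.05 ± 0.06, adjusted p = 0.541, 95% interval from -0.11 to 0.20). The call rests on the 4 arrays of replicates 2 and 3: without any 1 of them, limma with the batch as a block gave differences of 0.31 to 0.35 and adjusted p-values of 0.194 to 0.287. Blocking on the replicate number instead, limma gave lkh1 0.33 ± 0.05 (adjusted p = 0.189), and without a block 0.33 ± 0.37 (adjusted p = 0.999). In these limma fits 0 genes of all tested passed, and 317 and 32 genes had an unadjusted p under 0.05.

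The corepressor genes did not pass the test between media. tup11 (SPAC18B11.10, chromosome I) had log2 values of 9.76, 10.40 and 10.38 in YEPME, against 9.99, 10.30 and 10.39 in YEPD, so that the media overlapped. Its difference was -0.04 ± 0.07 (limma blocked on the batch, adjusted p = 0.815, 95% interval from -0.24 to 0.15). tup12 (SPAC630.14C, chromosome I), its paralogue, had 10.63, 9.96 and 10.09 in YEPME, against 10.82, 9.89 and 9.99 in YEPD. Its difference of -0.01 ± 0.08 (limma adjusted p = 0.976, 95% interval from -0.22 to 0.20) was smaller than its standard error and changed sign when the arrays were centred on their median or quantile normalized.

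ssn6 (SPBC23E6.09, chromosome II), for the TPR partner of the Tup proteins, had 10.44, 9.97 and 10.13 in YEPME, against 10.42, 10.11 and 10.16 in YEPD. Its difference was -0.05 ± 0.06 (limma adjusted p = 0.719, 95% interval from -0.21 to 0.11). The intervals of all 3 corepressor genes thus stay within 0.24 of 0 on the log2 scale. In replicate 1, tup11 and tup12 were lower in YEPME by similar amounts, with differences of -0.23 and -0.19, whereas over the mean of pairs 2 and 3 they differed by 0.05 and 0.08. The interaction test passed for tup11 (-0.28 ± 0.07, limma adjusted p = 0.0339) and not for tup12 (-0.27 ± 0.11, limma adjusted p = 0.0948). For ssn6 the interaction was 0.10 ± 0.11 (limma adjusted p = 0.474).

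**Figure D2:**
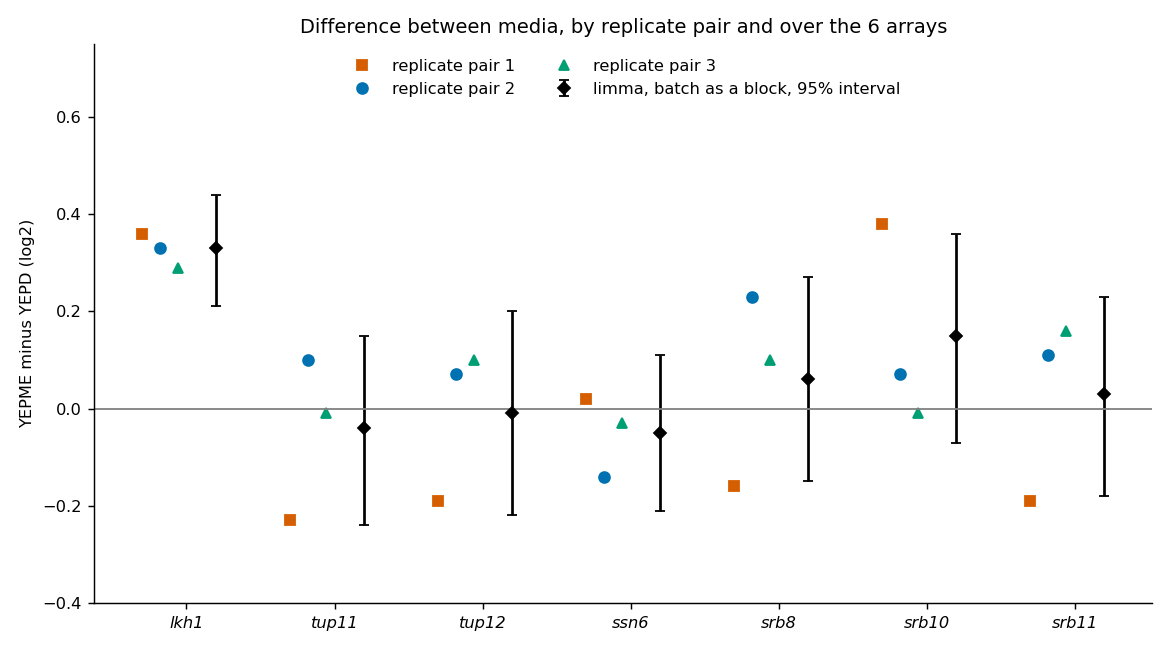
Difference between YEPME and YEPD (log2, y axis) for each gene (x axis) in replicate pairs 1, 2 and 3, beside the limma estimate with the batch as a block (diamond) and its 95% interval. Only the interval of lkh1, from 0.21 to 0.44, leaves out 0, and the pair 1 differences of tup11, tup12, srb8 and srb11 are negative.

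The 3 kinase module genes did not pass between media over the 6 arrays, and their differences in replicate 1 departed from those in the other replicates. srb8 (SPAC688.08, chromosome I), for the Med12 subunit, had log2 values of 8.81, 9.62 and 9.55 in YEPME, against 8.97, 9.39 and 9.45 in YEPD. The YEPME value was below the YEPD value in replicate 1 and above it in replicates 2 and 3. The difference over the 6 arrays was 0.06 ± 0.08 (limma blocked on the batch, adjusted p = 0.770, 95% interval from -0.15 to 0.27).

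srb11 (SPBC12D12.06, chromosome II), for the cyclin of the module, had 9.87, 10.47 and 10.48 in YEPME, against 10.07, 10.36 and 10.32 in YEPD. It followed the same order as srb8, lower in YEPME in replicate 1 and higher in replicates 2 and 3. Its difference over the 6 arrays was 0.03 ± 0.08 (limma adjusted p = 0.909, 95% interval from -0.18 to 0.23). Within replicates 2 and 3 alone, srb8 differed by 0.17 ± 0.04 and srb11 by 0.14 ± 0.03, and neither passed limma there (adjusted p = 0.0638 and 0.0557).

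srb10 (SPAC23H4.17C, chromosome I), for the kinase itself, had 6.86, 5.84 and 5.80 in YEPME, against 6.48, 5.78 and 5.81 in YEPD. The replicate 1 pair differed by 0.38 and the pairs of replicates 2 and 3 by 0.07 and -0.01. Over the 6 arrays the difference was 0.15 ± 0.08 (limma adjusted p = 0.462, 95% interval from -0.07 to 0.36). The interaction of medium and batch passed limma for all 3 genes: it was -0.32 ± 0.07 for srb8 (adjusted p = 0.0230), -0.33 ± 0.06 for srb11 (adjusted p = 0.0107) and 0.35 ± 0.06 for srb10 (adjusted p = 0.0105). With tup11, this makes 4 of the 7 genes, against 46.4% of all genes tested. In 5 of the 7, all but lkh1 and srb10, the pair 1 difference was opposite in sign to the mean of pairs 2 and 3, as in 50.9% of all genes. Replicate 1 holds 1 array per medium, and the test takes its spread from the other replicates. With limma's trend and robust settings, which give dim genes their own spread, the interaction of srb10 was 0.35 ± 0.22 and did not pass (adjusted p = 0.197).

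med13 (SPAC589.02C), for the remaining subunit of the kinase module, is described beside them, and was chosen after its values were seen. It had 8.72, 8.00 and 8.05 in YEPME, against 7.87, 7.81 and 7.90 in YEPD. Its value was high on the YEPME array of replicate 1 alone. The pair differences were 0.84, 0.19 and 0.15, and the difference over the 6 arrays was 0.40 ± 0.15 (limma blocked on the batch, adjusted p = 0.288; interaction adjusted p = 0.00402). In replicate 1, the genes for the kinase and for Med13 were thus the higher ones in YEPME, while those for the cyclin and for Med12 were lower.

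Of 17 measured Mediator genes outside the 7, med13 included, 0 passed limma with the batch as a block and 0 passed within replicates 2 and 3, and the interaction passed for 7. The median difference of the 17 was -0.04 over the 6 arrays, -0.05 in replicate 1 and -0.01 over replicates 2 and 3, against -0.009, -0.042 and 0.003 for all genes tested. Over replicates 2 and 3 the 4 kinase module genes had mean differences of 0.03 to 0.17, and the 17 Mediator genes ranged from -0.20 to 0.17. Both upper ends include med13, which belongs to both groups and had 0.17. The next highest of the 17 was med1 at 0.15. The most strongly detected of the 17, srb7 and med14, encode subunits of the core complex and differed by -0.15 ± 0.12 and 0.13 ± 0.12 over the 6 arrays (limma adjusted p = 0.591 and 0.621). In replicate 1 they differed by -0.49 and 0.47, against 0.03 and -0.03 over the mean of pairs 2 and 3. Differences of opposite sign in replicate 1 were thus not particular to the kinase module.

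**Figure D3:**
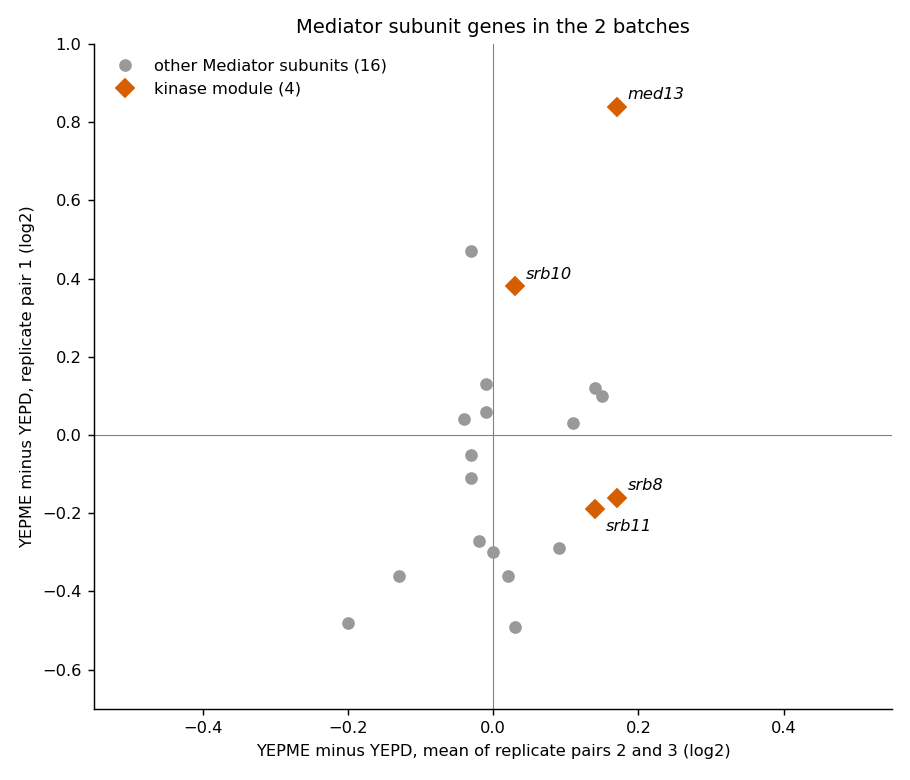
Difference between YEPME and YEPD (log2) of the Mediator genes in replicate pair 1 (y axis) against the mean of pairs 2 and 3 (x axis), with the 4 kinase module genes as diamonds and the 16 other subunits as circles. srb10 (0.38) and med13 (0.84) lie above 0 in pair 1, srb8 (-0.16) and srb11 (-0.19) below it, and all 4 lie right of 0.

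The batch of replicate 1 differed from replicates 2 and 3 in the level of all 7 genes, with tup12, ssn6 and srb10 higher and lkh1, tup11, srb8 and srb11 lower in replicate 1. All 7 passed limma, as did 71% of all genes tested, 35% higher and 36% lower in replicate 1, and the batches did not overlap over the 6 arrays for any of the 7, as was so for 76.8% of all genes. A count of 7 of 7 is thus close to what most genes show. The batches were defined in part by the level of most genes on these same arrays. The limma p-values between batches are therefore not independent support for a difference. For lkh1 the mean was 10.41 in replicate 1 and 11.31 in replicates 2 and 3, a difference of -0.90 ± 0.05 (limma adjusted p = 0.000109), which is larger than its difference between media. srb10 differed by 0.86 ± 0.09, with means of 6.67 in replicate 1 and 5.81 in replicates 2 and 3 (limma adjusted p = 0.00079). Whether the arrays, the cultures or their handling set this difference apart cannot be told apart.

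The Tup paralogues moved in opposite directions between the batches. tup12 differed by 0.74 ± 0.09 between replicate 1 and replicates 2 and 3 (means of 10.73 and 9.98, limma adjusted p = 0.00112), or 1.67-fold. tup11 differed by -0.49 ± 0.08 (means of 9.88 and 10.37, limma adjusted p = 0.00353), or 0.71-fold. ssn6 differed by 0.34 ± 0.07 (means of 10.43 and 10.09, limma adjusted p = 0.0071). The difference of tup12 exceeded that of tup11 by 1.23 on the log2 scale. An exact two-sided permutation test over the 6 arrays gave p = 0.0667, the smallest p that 2 arrays against 4 allow (0.0667 also when adjusted over 2 such comparisons). The split was drawn from these same arrays, and the pairs of genes were chosen with earlier results known. The limma p-values between batches rest on the same split. Neither they nor the permutation p-value therefore add support for the opposite directions, which are described from the means alone.

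In the kinase module, srb8 differed by -0.61 ± 0.09 (means of 8.89 and 9.50, limma adjusted p = 0.00225) and srb11 by -0.44 ± 0.09 (means of 9.97 and 10.40, limma adjusted p = 0.0071). The difference of the kinase gene srb10 exceeded that of its cyclin gene srb11 by 1.29 (exact two-sided permutation p = 0.0667, again the smallest possible, and the same when adjusted). The same limit holds for this p-value and for the limma p-values of srb8 and srb11 between batches. Between media, the difference of tup12 exceeded that of tup11 by 0.04, -0.04 and 0.11 in replicate pairs 1, 2 and 3. That of srb10 exceeded that of srb11 by 0.57 in replicate 1 and by -0.05 and -0.17 in the other pairs. These media values were not tested. The directions of the 7 differences between batches were the same when arrays were centred on their median or quantile normalized.

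**Figure D4:**
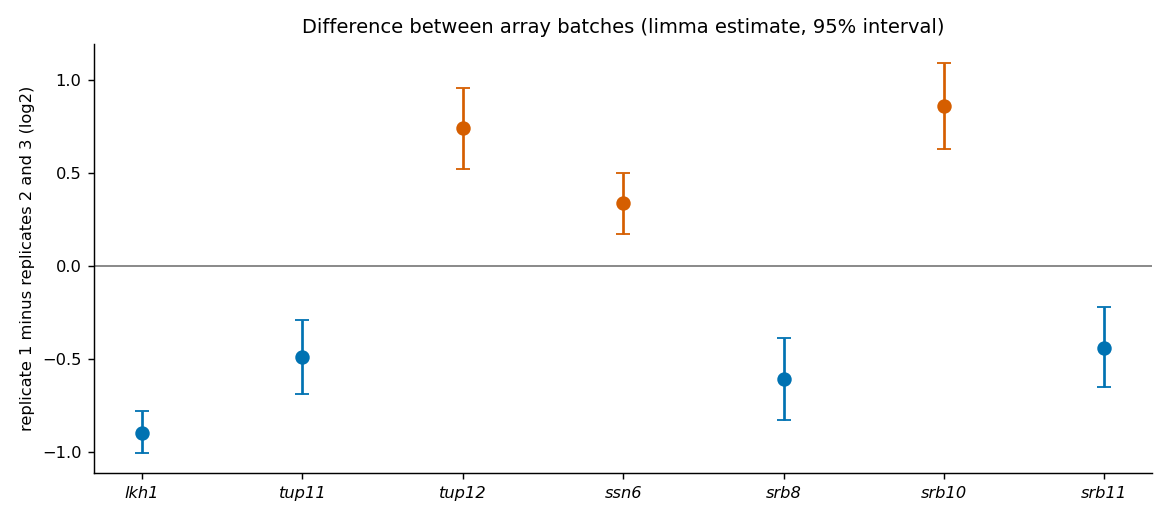
Difference between replicate 1 and replicates 2 and 3 (log2, y axis) for each gene (x axis), as the limma estimate over 6 arrays with medium in the model and its 95% interval. tup12, ssn6 and srb10 lie above 0, and lkh1, tup11, srb8 and srb11 below it.

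To place each gene among the others, the genes with the closest profile over the 6 arrays were found by the Euclidean distance between log2 values after removal of each gene's mean, over 2862 other genes above background. Since the arrays fall into 2 batches, these profiles mainly follow the batch, and no correlation is given. Closest to lkh1 were mde10, of the ADAM metalloprotease family, at a distance of 0.15, ste11, for the main activator of mating genes, at 0.19, and clr2, for a heterochromatin silencing protein, at 0.20, against a median distance of 1.18 to all genes. ste11 had values of 11.30, 11.92 and 11.99 in YEPME, against 10.84, 11.75 and 11.79 in YEPD. Like lkh1 it was higher in YEPME in every pair and lower in replicate 1 than in the other replicates. That likeness follows largely from its selection by profile, and 16.7% of all genes were higher in YEPME in every pair. ste11 did not itself pass between media (0.28, limma adjusted p = 0.175).

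The other genes had neighbours at smaller distances. Their median distances to all genes were also smaller than that of lkh1, from 0.67 for ssn6 to 1.11 for srb10. tup11 lay nearest to myo51 (0.08), for a class V myosin, ogm1 (0.09), for a protein O-mannosyltransferase, and med6 (0.09), for a subunit of the Mediator core. tup12 lay nearest to atp1 (0.08), for a mitochondrial ATP synthase subunit, erg5 (0.09), of ergosterol synthesis, and ssb3 (0.10), for a subunit of replication protein A. ssn6 lay nearest to gtb1 (0.05), for gamma-tubulin, prp17 (0.06), for a splicing factor, and ppk24 (0.06). srb8 lay nearest to kha1 (0.07), pcm2 (0.08) and spc34 (0.09), the last for a kinetochore protein. srb10 lay nearest to spf1 (0.08), rxt3 (0.08), for a subunit of a histone deacetylase complex, and vac7 (0.12). srb11 lay nearest to hut1 (0.06), gyp10 (0.07) and sfc6 (0.08). Among the 7 themselves, tup11 and srb11 were the closest pair at 0.14, followed by tup11 and srb8 at 0.20 and srb8 and srb11 at 0.23, while lkh1 and srb10 were the farthest apart at 2.05.

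Among genes around Lkh1, 0 of 8 possible partners and substrates passed limma with the batch as a block. Their median difference was 0.21, against -0.009 for all genes, and it was 0.30 in replicate 1 and 0.10 over replicates 2 and 3. The interaction passed for 4 of the 8, against 46.4% of all genes. On the arrays of replicates 2 and 3, where 15.6% of all genes passed, 1 of the 8 did. It was pap1, for a transcription factor of the oxidative stress response. pap1 had values of 11.05, 11.75 and 11.73 in YEPME, against 10.82, 11.50 and 11.54 in YEPD, and differed by 0.23 ± 0.04 over the 6 arrays (limma adjusted p = 0.0855). prr1, for another stress transcription factor, differed by 0.28 ± 0.09 (limma adjusted p = 0.236), with 0.53 in replicate 1 and 0.15 in each of the other pairs.

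Of 10 other kinase genes of the CMGC group, casein kinase genes and splicing kinase genes, 0 passed over the 6 arrays, with a median of 0.04. Within replicates 2 and 3, 2 were called higher and 1 lower, against 6.91% and 8.7% of all genes. The brightest of the 10, cka1 and ckb1, for casein kinase 2 subunits, differed by 0.11 ± 0.05 and -0.01 ± 0.04 (limma adjusted p = 0.400 and 0.948). Of 9 genes for other transcriptional cyclin-dependent kinases and their partners, 0 passed, with a median of -0.08. Within replicates 2 and 3, 1 was called higher and 1 lower, against the same shares of all genes. pch1, the cyclin gene of Cdk9, differed by 0.00 ± 0.04 and csk1, for a CDK-activating kinase, by -0.09 ± 0.11 (limma adjusted p = 0.975 and 0.733).

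Around the Tup proteins, 0 of 15 measured genes for recruiting repressors, their opponents and known targets passed over the 6 arrays, and the median was 0.00. The 4 arrays of replicates 2 and 3 gave 4 higher and 5 lower, where 15.6% of all genes were called, and the interaction passed for 11, where it did for 46.4% of all genes. rst2, for an activator of gluconeogenic genes that is opposed by the repressor Scr1, differed by 0.00 ± 0.08 (limma adjusted p = 0.998). str1, for a siderophore transporter, had 9.80, 12.11 and 12.04 in YEPME, against 11.11, 12.38 and 12.41 in YEPD, a difference of -0.65 ± 0.21 (limma adjusted p = 0.235, and 0.00919 within replicates 2 and 3). Its YEPME values were below the YEPD values in every pair. fbp1, the glucose-repressed gene for fructose-1,6-bisphosphatase on which Tup11 and Tup12 are best known to act, is named after its values were seen. Its pair differences were 2.15, 0.36 and 0.39, and the difference over the 6 arrays was 0.97 ± 0.37 (limma adjusted p = 0.301, and 0.00842 within replicates 2 and 3; interaction adjusted p = 0.000608).

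Of 21 measured genes for histone deacetylases and their complexes, through which Tup-type corepressors are known to act in other yeasts, 0 passed over the 6 arrays, with a median of 0.01. Within replicates 2 and 3, 2 were called higher and 0 lower, against 6.91% and 8.7% of all genes. clr6 and cph1 differed by -0.04 ± 0.04 and 0.05 ± 0.09 (limma adjusted p = 0.669 and 0.820).

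At the output end of flocculation, 2 of 11 measured genes for adhesins and flocculation transcription factors rose with the batch as a block, against 0.76% of all genes. The list median was 0.10. The 2 were map4 and mam3, for the agglutination proteins of P and M cells, with differences of 0.52 ± 0.07 and 0.38 ± 0.04 (limma adjusted p = 0.0404 for each). In replicates 1, 2 and 3, map4 differed by 0.39, 0.55 and 0.62 and mam3 by 0.36, 0.39 and 0.38, so that both were, like lkh1, higher in YEPME in every replicate. cbf11, for a transcription factor of the CSL family, differed by 0.10 ± 0.06 (limma adjusted p = 0.485), and the flocculin gene pfl8 by 0.00 ± 0.06 (limma adjusted p = 0.993).

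Some of the genes that mark the 2 mating types passed between media. Of 5 P cell genes 2 rose and 0 fell, map3 and the map4 already counted, with a median of 0.28. Of 8 M cell genes 1 rose and 0 fell, the mam3 already counted. The M cell median was -0.29 over the 6 arrays, -0.97 in replicate 1 and 0.10 over replicates 2 and 3. The interaction passed for 7 of the 8, against 46.4% of all genes. Of all genes, 0.76% were called higher over the 6 arrays. On the arrays of replicates 2 and 3, limma called 4 of the 5 P cell genes higher and 0 lower. It called 2 of the 8 M cell genes higher there and 0 lower, against 6.91% of all genes higher and 8.7% lower. As the log2 of their summed linear values, the P cell genes stood at 12.68, 12.59 and 12.66 in YEPME, against 12.63, 12.48 and 12.40 in YEPD. The M cell genes stood at 12.35, 12.20 and 12.19 in YEPME, against 13.82, 11.99 and 11.96 in YEPD. The M cell sum was thus higher in YEPD in replicate 1 and higher in YEPME in the other pairs, while the P cell sum was higher in YEPME in every pair. Single bright genes weigh heavily in these sums. sxa1, the brightest P cell gene, had pair differences of 0.02, 0.02 and 0.19, while map1 was lower in YEPME in replicate 1 (-0.43). mfm2 stood at 13.10 on the YEPD array of replicate 1, where the M cell sum was 13.82. All 13 marker genes lay above background on every array, but mfm1 and map2 came as close to it as 0.07 and 0.33. mfm1 and mfm3 had 2 probe sets each, of which the brighter was used. Their part in the difference of lkh1 was not tested.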

How the data were processed

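The deposited log2 values, 1 per probe set and array, come from 6 Affymetrix arrays hybridised with biotin-labelled cRNA. RMA and Partek are named per the submitters' processing notes. Their versions and settings, and whether all arrays were normalized jointly, were not given in the sources used here. Probe sets were named through the platform annotation and RefSeq ASM294v3 gene numbers. Gene positions on the chromosomes were used to find the coding genes next to those described here. Where a gene had more than 1 probe set, the brightest stood for it. Tests used limma 3.58.1 in R 4.3.3 (lmFit and eBayes, two-sided, Benjamini-Hochberg), with medium and batch as terms. Further fits were the interaction of medium and batch, replicates 2 and 3 alone, no block, and the replicate number as a block. The code was tested on simulated data.

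Deviations from the group means correlated at 0.853, 0.835 and 0.836 across genes for arrays of the same number 1, 2 and 3. By the rule used here the numbers were taken to pair the arrays. Numbers 2 and 3 crossed gave 0.816, so these values hardly separate replicate 2 from replicate 3. The fit with the batch as a block does not use the pairing within replicates 2 and 3. The fit with the replicate number as a block does. The 7 genes, the lists, the batch term and the tests were chosen with earlier results of these data known. Genes named from a list were up to 3 past the threshold with the largest difference and up to 2 not past it with the highest level, and 3 closest profiles were named for each of the 7 genes. In the lists, srb9 was measured as med13. Alternatives were other blocks, median centring, quantile normalization, a filter on dim genes, trend and robust settings, averaging the probe sets of a gene, and leaving out each array.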

Additional observations from a re-analysis of the deposited data

Results flagged for a closer look

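For 4 of the 7 genes, the difference between YEPME and YEPD in replicate 1 departed from that within replicates 2 and 3 in limma's interaction test, as 46.4% of all genes did. For tup11 the difference in replicate 1 minus that in replicates 2 and 3 was -0.28 (pair differences of -0.23, 0.10 and -0.01). For srb8 it was -0.32 (-0.16, 0.23 and 0.10), for srb11 -0.33 (-0.19, 0.11 and 0.16) and for srb10 0.35 (0.38, 0.07 and -0.01). Each rests on a single array per medium in replicate 1.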

How the results depend on the processing

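The rise of lkh1 (0.326) kept its direction in all 14 alternatives and its call in 8 of them. Of these 8, the fit within replicates 2 and 3 and those without a replicate 1 array of either medium are the same fit, and averaging probe sets cannot change a gene with 1 probe set. With no block and with the replicate block it remained 0.326 and was not called, and leaving out 1 array gave 0.309 to 0.345. The 60 genes called between media became 0 with no block, 0 with the replicate block and 452 within replicates 2 and 3, and 0 to 452 when 1 array was left out. The replicate block changed no other call among the 7 genes. The near-zero differences of the uncalled genes changed sign in places: tup11 to 0.048 and tup12 to 0.083 within replicates 2 and 3, tup12 to 0.003 with centred and 0.007 with quantile-normalized arrays. With 1 array left out, the ranges were -0.097 to 0.048 for tup11, -0.071 to 0.083 for tup12, -0.088 to 0.003 for ssn6 and -0.017 to 0.135 for srb11. Within replicates 2 and 3, the 452 calls became 753 with trend and robust settings and 19 to 483 with 1 array left out: 19 without YEPD replicate 2 and 20 without YEPD replicate 3. lkh1 ranged there from 0.283 to 0.336 and lost its call without either of these arrays. srb11 passed there with centred arrays (0.150) and with trend and robust settings (0.135), as did srb8 (0.165) with the latter settings. The 1344 interaction calls became 592 to 1429 with 1 array left out. The interaction of srb10 (0.351) was not called with trend and robust settings, nor that of srb8 (-0.242) with quantile normalization, while that of tup12 (-0.271) was called with trend and robust settings. With 1 array left out it ranged from 0.329 to 0.373 for srb10, -0.348 to -0.311 for srb11, -0.358 to -0.285 for srb8, -0.323 to -0.233 for tup11 and -0.337 to -0.205 for tup12, and each of these crossed the threshold in at least 1 case. The differences between batches kept direction and call for all 7 genes in all 10 alternatives. The causes of these changes were not tested. Where 1 array per medium remains, it is assumed to vary like the others. srb10 lay at most 1.27 above background, which limits its values.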

Other observations

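Some coding genes next to the 7 on the chromosomes were measured, and were looked at after the values of the 7 had been seen. Beside lkh1 lie trz1, with pair differences of 0.31, -0.24 and -0.09, and rad15, with 0.17, 0.03 and 0.10, and neither passed between media (limma blocked on the batch, adjusted p = 0.981 and 0.403). rad15 was lower in replicate 1 than in replicates 2 and 3 by a difference of -0.81, near the -0.90 of lkh1, while trz1 differed by 0.18. Beside tup12 lie gti1, which had pair differences of 1.05, 0.12 and 0.25, and tsc2, with -0.30, 0.06 and 0.00. gti1 differed by 2.32 between replicate 1 and the other replicates and tsc2 by -0.57, against 0.74 for tup12 between them. Beside srb11, trx2, for a mitochondrial thioredoxin, differed by -0.15, -0.10 and -0.11 in the 3 pairs (limma adjusted p = 0.239). Beside ssn6, rgp1 differed by 0.53, -0.28 and -0.30 (limma adjusted p = 0.971). Beside srb10, rbx1 differed by -0.36, 0.02 and -0.15 (limma adjusted p = 0.393), and so was lower in YEPME in replicate 1, where srb10 was higher. These 7 were the neighbours measured.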
